A study of Mus musculus with 16 samples.

Results

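The genes described here were 8 genes of the route from glucose to lactate and of its control under low oxygen: Hif1a, Slc2a1, Hk2, Aldoa, Gapdh, Eno1, Pkm and Ldha. They were chosen by name. Their members in the data were the histone mark peaks that overlapped a gene body with 5 kb added on each side, at fixed positions of the mouse build GRCm39. This gave 236 peaks out of the 320508 peaks on the 21 main chromosomes of all 16 libraries, with 70 peaks of H3K18la, 53 of H3K4me3, 106 of H3K27ac and 7 of H3K27me3. The peaks came from CUT&Tag, in which an antibody guides a transposase to a histone post-translational modification (hPTM) so that the DNA around it is cut out and sequenced. The cells were macrophages sorted as CD45+CD11b+F4/80+CD64+ from the calf muscle of the ischemic hind limb of C57BL6J wild type males, 8 to 12 weeks old, whose femoral artery had been ligated. They were taken at 2 or 4 days post injury (dpi), with 4 hPTMs and 2 libraries per hPTM and day, which makes 8 groups. No uninjured or untreated group entered these data, so every comparison is between days or between hPTMs. The study's methods call the 2 libraries of a group biological replicates, while the labels and methods do not say how many mice each library came from, so the p-values measure the spread between 2 libraries of a group. Libraries of different hPTMs may also share cells.

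Glycolysis turns glucose into pyruvate, and lactate dehydrogenase turns pyruvate into lactate. GLUT1, the product of Slc2a1, carries glucose into the cell, and hexokinase 2 (Hk2) traps it by phosphorylation. Aldolase A (Aldoa) acts after hexokinase 2. The dehydrogenase Gapdh, enolase 1 (Eno1) and the pyruvate kinase gene Pkm follow in the lower part of the pathway. Ldha encodes the lactate dehydrogenase subunit that dominates in many glycolytic cells. HIF-1α, encoded by Hif1a, is the oxygen-regulated subunit of a transcription factor for which glycolytic genes are classical targets. In inflammatory macrophages, high glycolysis is a well-known feature. H3K18la is the lactylation of histone H3 on lysine 18, an hPTM whose acyl group derives from lactate. H3K4me3 marks active promoters, H3K27ac marks active promoters and enhancers, and H3K27me3 marks chromatin silenced by Polycomb.

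To show the promoters that these peaks concern, sequences upstream of the gene starts were taken from RefSeq (build GRCm38.p6), in which all 8 genes were found with 14 listed starts. The 250 bases before each start were searched on both strands for ACGTG, the core of the site bound by HIF, and for GCGTG, its common variant. The palindrome CACGTG counts once per strand. ACGTG was found at a listed start of 6 of the 8 genes and at 7 of the 14 starts, while 16.6% of all 32851 RefSeq promoters held it. Either motif was found at 12 of the 14 starts, against 38.6% of all promoters. The starts are not all separate sites: the sequences of starts 2 and 3 overlap and share matches at Aldoa and also at Eno1. A gene with several starts can also match at any of them, while the shares are per promoter, so the counts are not like for like. A match is a description of the letters and no measure of binding. The following 4 are the promoters of the regulator, of both genes of glucose entry and of the lactate step. All 4 hold ACGTG. Among the starts not printed, the first of Aldoa and Pkm, the second of Ldha and every listed start of Gapdh and Eno1 do not. Capitals mark ACGTG or its reverse complement, each sequence reads 5′ to 3′ along the gene and ends at the base before the start, and these GRCm38 positions cannot be set against the GRCm39 positions of the peaks.
Hif1a chr12:73907617-73907866 (+): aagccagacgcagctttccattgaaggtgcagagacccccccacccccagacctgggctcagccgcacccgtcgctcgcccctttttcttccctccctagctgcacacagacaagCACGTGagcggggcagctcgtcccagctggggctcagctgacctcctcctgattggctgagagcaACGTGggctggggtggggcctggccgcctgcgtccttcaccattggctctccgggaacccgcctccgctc
Slc2a1 chr4:119108495-119108744 (+): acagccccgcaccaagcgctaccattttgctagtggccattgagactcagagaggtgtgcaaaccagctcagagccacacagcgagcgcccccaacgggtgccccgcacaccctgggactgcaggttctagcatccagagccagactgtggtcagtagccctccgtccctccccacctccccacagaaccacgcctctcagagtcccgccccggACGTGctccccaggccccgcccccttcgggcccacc
Hk2 chr6:82774455-82774704 (-): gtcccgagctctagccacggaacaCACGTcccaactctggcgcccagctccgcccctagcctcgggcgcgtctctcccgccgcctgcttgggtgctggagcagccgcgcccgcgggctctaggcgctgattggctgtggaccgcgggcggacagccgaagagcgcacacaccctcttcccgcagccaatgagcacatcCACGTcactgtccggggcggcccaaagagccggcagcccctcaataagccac
Ldha first start chr7:46845554-46845803 (+): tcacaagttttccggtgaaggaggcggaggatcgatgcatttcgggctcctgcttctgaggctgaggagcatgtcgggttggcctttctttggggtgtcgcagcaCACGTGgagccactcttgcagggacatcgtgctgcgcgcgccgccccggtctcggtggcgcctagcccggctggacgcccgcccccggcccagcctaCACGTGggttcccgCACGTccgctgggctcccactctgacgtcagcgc

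The Ldha promoter held 5 matches to ACGTG on either strand, the most of the 14 starts. Hif1a held 3, Hk2 held 2 and Slc2a1 held 1. The annotation of the same older build also gives where these starts lie inside each gene. In GRCm38 the RefSeq start of Hif1a lies 6.49 kb inside the 5′ edge of the GENCODE gene, and those of Ldha lie 4.33 and 5.61 kb inside. For the other 6 genes every listed start lies at most 1.57 kb from that edge. All distances below are from the 5′ edge of the gene body that defined the members, in the direction of transcription, so for Hif1a and Ldha the edge is not the RefSeq start.

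The deposited lists give, for each peak, the total signal, which is the summed fragment coverage over the peak. This is not normalised between libraries, and the read depth of the libraries is unknown. Peaks were therefore ranked by total signal within their own library, and a percentile is the percentage of peaks of that library that had less signal. The value of a gene in a library is the percentile of its highest-ranking peak. Where the days are said not to overlap, or the later day to lie above or below the earlier, this describes those libraries alone. With so few libraries per day, such a separation can arise by chance. How often it occurs over all peaks was not analysed here. The lists held 15190 to 27578 peaks for H3K18la, 16446 to 18413 for H3K4me3, 24976 to 35971 for H3K27ac and 12060 to 14836 for H3K27me3. A percentile depends on how many weak peaks a list holds, so percentiles from lists of different length are not on the same scale. One library stood apart: H3K27ac at 4 dpi, replicate 1, covered 205 Mb with its peaks, against 37.8 to 65.3 Mb in the other H3K27ac libraries, and had a median peak width of 4250 bp. The H3K27ac libraries carry other library codes than all the rest, and among them the broad library has a code series of its own, so a difference between H3K18la and H3K27ac cannot be told apart from a difference between library sets. The macrophage identity of the cells was not checked against marker genes, because no GRCm39 annotation was used here. The other genes of glycolysis were not analysed here for the same reason.

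Every one of the 8 genes had an H3K4me3 peak and an H3K27ac peak in all 4 libraries of these hPTMs, and 7 of the 8 had an H3K18la peak in all 4 H3K18la libraries. Hif1a was the exception, with no H3K18la peak at 2 dpi in replicate 2. H3K27me3 was found in all 4 libraries only at Pkm, and in 3 of 4 at Hif1a, while the other 6 genes had no H3K27me3 peak in any library. The share of all genes with a peak was not analysed here, so these counts describe the 8 genes alone. With a stricter limit, under which only peaks above the median signal of their list were kept, 3 of the 8 genes kept an H3K18la peak in all 4 libraries.

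**Figure D1:**
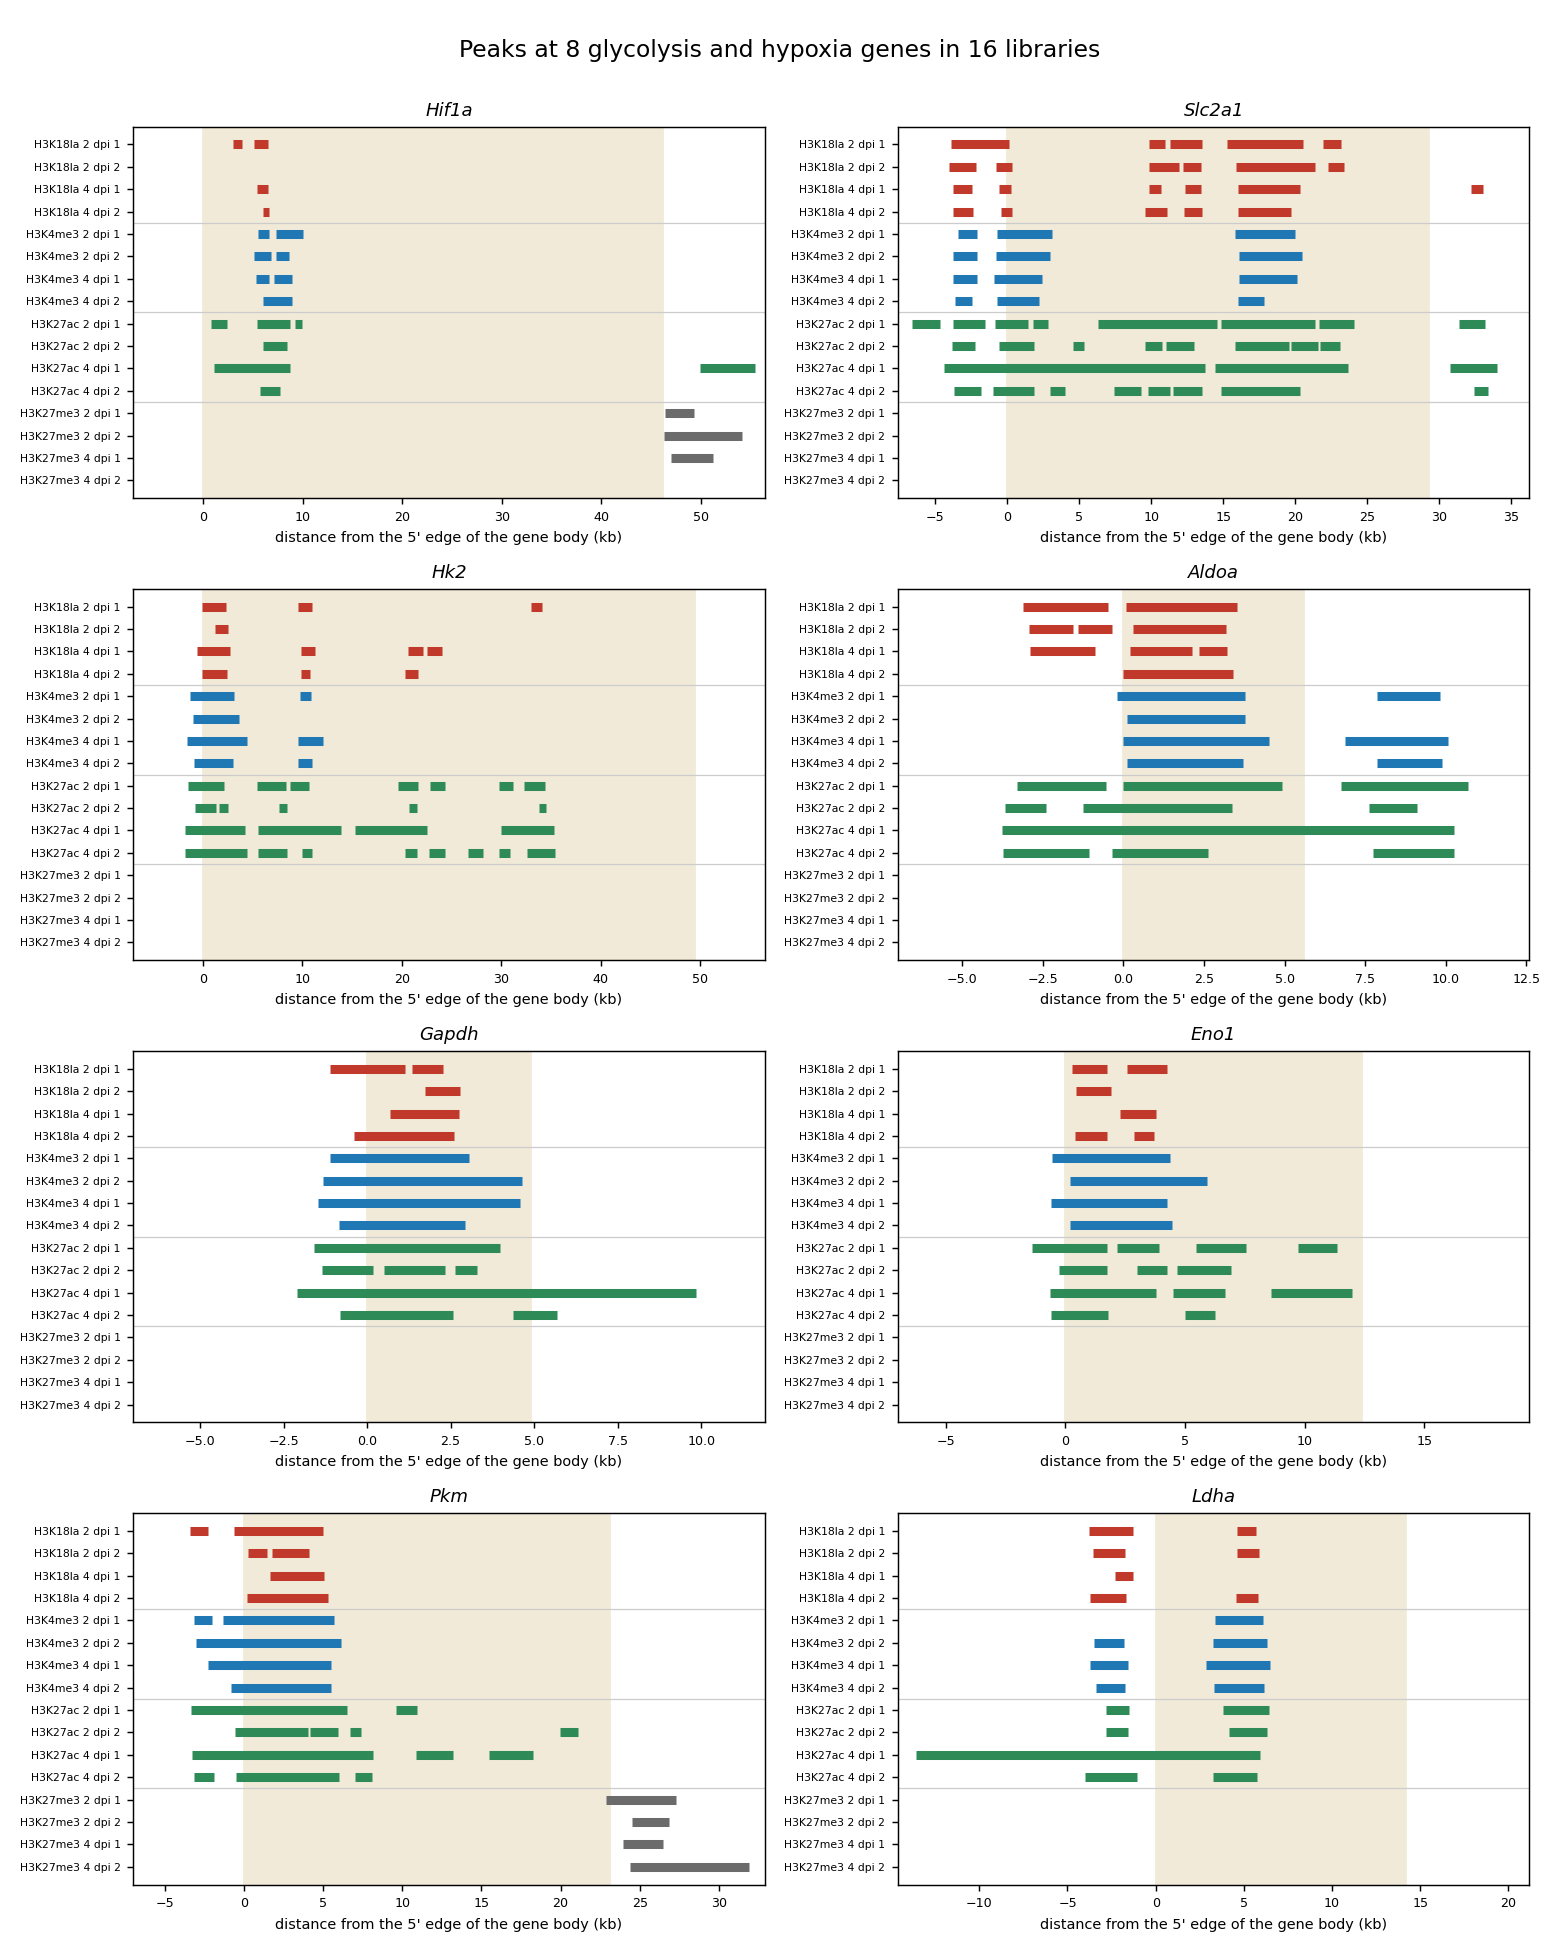
Peaks at each gene (1 panel per gene), with the distance from the 5′ edge of the gene body in kb on the x axis and the 16 libraries on the y axis. Bars are called peaks, red for H3K18la, blue for H3K4me3, green for H3K27ac and grey for H3K27me3, and the shaded span is the gene body. H3K27me3 lies only beyond or at the 3′ edge of Hif1a and Pkm, and Slc2a1 carries a separate block of H3K18la, H3K4me3 and H3K27ac inside the gene.

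Hif1a encodes the oxygen-regulated subunit of HIF-1 and had the lowest mean rank of the 8 genes in H3K4me3. Its mean in H3K18la was also the lowest, over 3 libraries, but within the spread of the next gene, Eno1. Its H3K4me3 lay 5.17 to 10 kb inside the gene body, around the distance at which RefSeq places the start in GRCm38. Its highest H3K4me3 percentiles were 52.6 and 32.4 at 2 dpi and 40.1 and 66.1 at 4 dpi, with overlapping days. H3K18la at the same site stood at percentile 57.6 in 2 dpi replicate 1, was not called in replicate 2, and stood at 51.4 and 5.06 at 4 dpi. Within its own lists H3K27ac stood at higher percentiles, at 91.1 and 89.3 at 2 dpi and 86.4 and 82.8 at 4 dpi. Both 4 dpi libraries were thus below both 2 dpi libraries.

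Slc2a1, the glucose transporter gene, had the highest H3K18la ranks of the 8 genes, in a place other than its start. Its highest H3K18la peak stood at percentile 98.1 and 98.2 at 2 dpi and 98.6 and 96.3 at 4 dpi, and in all 4 libraries it was the intragenic peak, at chr4:118981178-118987261 (GRCm39), 15.3 to 21.4 kb from the 5′ edge. By total signal, which is summed over the width of a peak, the peaks near the 5′ edge ranked lower. In the region from -4.03 to 0.35 kb, the highest H3K18la peak stood at 93.3 and 86.7 at 2 dpi and at 77.2 and 76.2 at 4 dpi. By maximum signal the upstream peak ranked above the intragenic one in 2 dpi replicate 2 (98.4 against 94.4). By mean signal per base it did so too (91.8 against 89.8). In 4 dpi replicate 2 the maxima were close (93.1 against 93.3). A further block, 9.59 to 13.5 kb inside the gene, was called in all 4 libraries too.

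For H3K4me3 the order within Slc2a1 was the other way round. The peak at the 5′ edge, from -0.95 to 3.07 kb, stood at 85.5 and 78.6 at 2 dpi and 78.1 and 77.2 at 4 dpi, and the intragenic peak stood at 77.9 and 76.9 at 2 dpi and 46.9 and 16.9 at 4 dpi. The intragenic peak was thus below the 5′ peak in every H3K4me3 library, and its 4 dpi libraries were both below its 2 dpi libraries. In kb, H3K27ac on average covered this gene more than any other of the 8, with 22.1 ± 7.14 kb (SD, n = 4) of the window called. The windows differ in length, and by share of the window Aldoa was covered more (65.8% against 56.2% for Slc2a1). The highest H3K27ac peak of Slc2a1 stood at 98.0 and 96.2 at 2 dpi and at 96.1 and 96.1 at 4 dpi, and lay over the intragenic block in 3 of 4 libraries. The exception was the broad library, 4 dpi replicate 1, in which 1 peak ran from -4.40 to 13.7 kb.

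Hk2, the hexokinase gene that starts glycolysis, carried its main H3K4me3 and H3K18la peaks at the 5′ edge. H3K4me3 stood at 92.5 and 92.8 at 2 dpi and at 96.5 and 94.7 at 4 dpi, with no overlap between the days. H3K18la stood at 64.4 and 15.2 at 2 dpi and at 87.4 and 71.5 at 4 dpi, also without overlap but with a wide spread within 2 dpi. Neither region passed the test over time described below (limma, adjusted p = 0.086 for H3K4me3 and 0.16 for H3K18la). Further H3K18la peaks inside the gene, up to 34.1 kb from the edge, stood at percentile 31.6 or lower. H3K27ac stood at 92.1 and 85.6 at 2 dpi and at 89.8 and 96.3 at 4 dpi, and added intragenic sites in each library, among them regions 5.41 to 13.9 kb, 15.3 to 22.5 kb and 29.8 to 35.4 kb from the edge that were called in all 4.

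Aldoa and the genes of lower glycolysis, Gapdh, Eno1 and Pkm, had strong and steady H3K4me3 and a more variable H3K18la. At Pkm, the pyruvate kinase gene, H3K4me3 stood at 99.0 and 99.3 at 2 dpi and at 97.9 and 98.1 at 4 dpi, in a region of 9.30 kb across the 5′ edge. H3K18la at Pkm stood at 97.5 and 81.2 at 2 dpi and at 75.0 and 94.1 at 4 dpi, which overlap. H3K27ac at Pkm stood at 99.3, 98.4, 95.4 and 98.5 in the same order. Pkm was first of the 8 genes in both H3K4me3 and H3K27ac, and the second in H3K18la.

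Aldoa, the aldolase gene, was the third in H3K18la, at 88.2 and 88.9 at 2 dpi and 70.1 and 89.0 at 4 dpi. Its H3K4me3 stood at 93.4 and 92.8 at 2 dpi and at 95.1 and 96.2 at 4 dpi, the later day above the earlier. The H3K4me3 region of Aldoa did not pass the test over time described below (limma, adjusted p = 0.111). Its H3K27ac stood at 96.8, 97.5, 96.6 and 94.3 in the same order. An H3K18la peak upstream of the edge, -3.11 to -0.37 kb, was present in 3 of 4 libraries and overlapped no H3K4me3 peak, although the nearest H3K4me3 region began at -0.21 kb. In GRCm38 a second gene model named Aldoa ends next to this edge and Ppp4c reaches into the window. Fam57b, on the opposite strand, spans -29.5 to 3.08 kb from the edge in that build, so it reaches over the start of Aldoa. Neither the outer peaks of Aldoa nor its main peaks at the start can therefore be given to 1 gene.

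Gapdh and Eno1 had H3K18la that ranged over most of the scale. Gapdh, the glyceraldehyde-3-phosphate dehydrogenase gene, stood at 67.3 and 0.79 at 2 dpi and at 56.3 and 82.4 at 4 dpi in H3K18la, and at 98.1, 98.6, 98.4 and 97.5 in H3K4me3. Its H3K27ac stood at 96.6, 88.4, 91.7 and 90.1. Eno1, the enolase gene, stood at 72.4 and 45.2 at 2 dpi and at 11.6 and 33.8 at 4 dpi in H3K18la. Both 4 dpi values of Eno1 were below both 2 dpi values, although not at 1 shared site: its H3K18la fell into 2 regions, each called in 3 of 4 libraries. H3K4me3 at Eno1 stood at 96.3, 94.4, 95.0 and 95.0, and H3K27ac stood at 93.2 and 91.6 at 2 dpi and at 79.3 and 79.8 at 4 dpi. In GRCm38 the neighbours Ncapd2 and Iffo1 reach into the window of Gapdh, while no other protein-coding gene lies within 5 kb of Eno1.

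Ldha, the gene of the lactate-forming enzyme, was the sixth of the 8 genes in both H3K18la and H3K4me3. H3K4me3 stood at 77.6 and 79.2 at 2 dpi and at 82.4 and 81.5 at 4 dpi, at a site 2.88 to 6.46 kb inside the gene body, which spans the distances at which RefSeq places its starts in GRCm38. The highest H3K18la peak of Ldha stood at 70.4 and 67.9 at 2 dpi and at 16.4 and 47.9 at 4 dpi, with both 4 dpi values below both 2 dpi values. In 3 of 4 libraries that peak was not the one at the H3K4me3 site but one upstream, at chr7:46487137-46489623, -3.76 to -1.28 kb from the edge. The H3K18la peak at the H3K4me3 site stood at 16.3 and 17.6 at 2 dpi, was not called in 4 dpi replicate 1 and stood at 47.9 in 4 dpi replicate 2. H3K4me3 at the upstream site stood at percentile 27.6 or lower and was missing in 2 dpi replicate 1. H3K27ac of Ldha stood at 75.5, 90.0, 98.1 and 80.5, where 98.1 came from the broad library, in which 1 peak covered both sites and ran 13.6 kb upstream. No other protein-coding gene lies within 5 kb of Ldha in GRCm38.

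**Figure D2:**
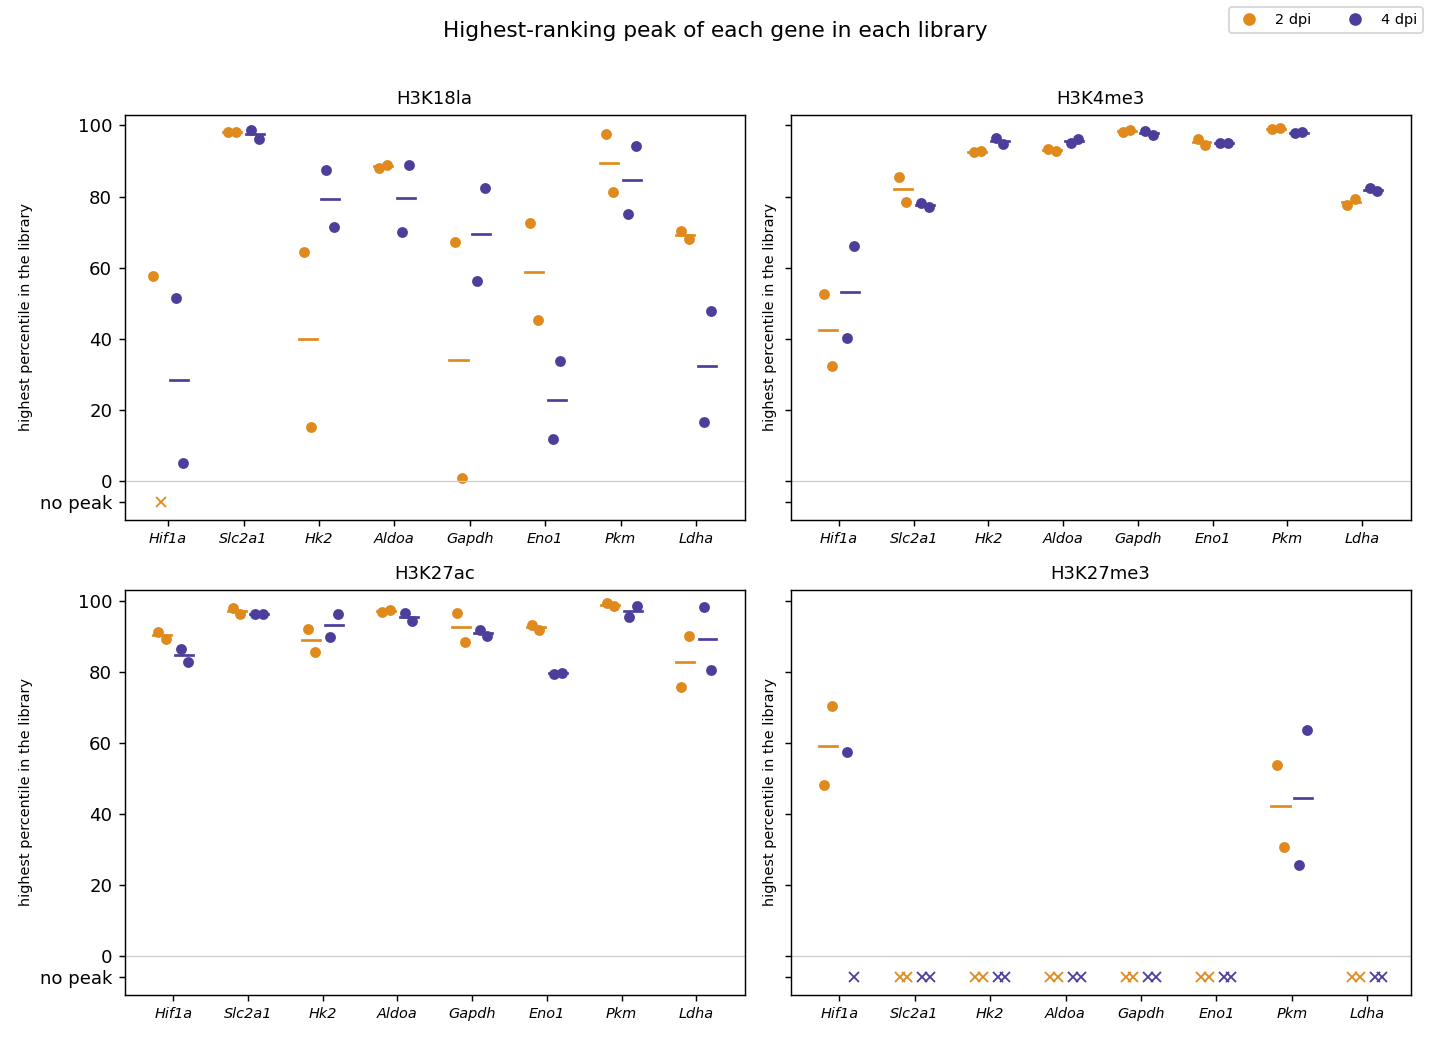
Percentile of the highest-ranking peak (y axis) of each gene (x axis) in each library, 1 panel per hPTM. Dots are libraries (orange 2 dpi, purple 4 dpi), short lines are means of the 2 libraries and crosses mark libraries with no peak. In H3K18la the dots of Hif1a, Hk2, Gapdh, Eno1 and Ldha are spread widely and Slc2a1 stays between 96.3 and 98.6, while in H3K4me3 the widest spread is that of Hif1a, from 32.4 to 66.1.

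Ordered by the mean over the 4 libraries, H3K18la ran from Slc2a1 (97.8 ± 1.03, SD) over Pkm (87.0 ± 10.6), Aldoa (84.0 ± 9.32), Hk2 (59.6 ± 31.2), Gapdh (51.7 ± 35.6), Ldha (50.6 ± 24.95) and Eno1 (40.8 ± 25.3) to Hif1a (38.0 ± 28.7, n = 3). Only Slc2a1 was apart from its neighbour by more than the larger of their SDs, by 10.8 against 10.6. No neighbours below it were. In H3K4me3 the order was Pkm (98.6 ± 0.68), Gapdh (98.1 ± 0.51), Eno1 (95.2 ± 0.81), Aldoa (94.4 ± 1.56), Hk2 (94.1 ± 1.84), Ldha (80.2 ± 2.17), Slc2a1 (79.8 ± 3.82) and Hif1a (47.8 ± 14.8). Here the steps from Gapdh to Eno1, from Hk2 to Ldha and from Slc2a1 to Hif1a were beyond the spread. Slc2a1 was thus first in H3K18la and the seventh in H3K4me3. In H3K27ac all 8 means lay between 86.0 (Eno1) and 97.9 (Pkm), and only the step from Aldoa (96.3 ± 1.39) to Gapdh (91.7 ± 3.53) was beyond the spread.

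The place of the highest-ranking peak by total signal also set the hPTMs side by side. The highest-ranking H3K18la peak overlapped the gene's leading H3K4me3 region in 24 of the 31 cases of a gene and library with an H3K18la peak. All 7 cases elsewhere belonged to Slc2a1 (4 of 4 libraries) and Ldha (3 of 4). For H3K27ac it overlapped in 29 of 32 cases, and the 3 cases elsewhere were all Slc2a1. Across the genome, 13298 H3K4me3 regions were called in all 4 H3K4me3 libraries, after peaks that overlapped by at least 1 bp were merged, and 10 of them lay at these genes. Of the 10, 7 overlapped an H3K18la region called in all 4 libraries, against 31.8% of all such H3K4me3 regions. The 3 without it were those of Hif1a, Eno1 and Ldha. The Eno1 region did overlap an H3K18la peak in each of the 4 libraries, but these fell into 2 regions, each called in 3 of 4. All 10 overlapped H3K27ac, against 77.9%, and 0 overlapped H3K27me3, against 10.6%. These shares were compared with no test, and regions of 1 gene are not independent.

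The comparison of 4 dpi with 2 dpi asked whether any of these genes changed its rank while the muscle regenerated. Only H3K4me3 gave calls, at Slc2a1 and Pkm, both lower at 4 dpi. Calls were also most frequent in H3K4me3 over all regions, at 15.9%. The shares were 0.118% in H3K18la, 0.185% in H3K27ac and 0.945% in H3K27me3. For this test the peaks of the 4 libraries of an hPTM were merged, the regions called in all 4 were ranked within each library, and limma was fitted to the normal scores of these ranks over all regions of the hPTM. A shift is given in normal-score units, in which 1 unit is 1 SD of the ranks, and a gene was called when at least 1 of its regions had an adjusted p under 0.05 (Benjamini-Hochberg, over all regions).

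In H3K4me3, 2 of the 8 genes were called and both fell, with 2 of 10 tested regions. Over all regions 15.9% were called in either direction and 8.07% were called lower. A count of 2 among 10 is near the share called in either direction. Its difference from the share called lower was not tested. The intragenic region of Slc2a1, chr4:118981695-118986403, stood at percentiles 69.9 and 69.9 among the shared regions at 2 dpi and at 27.6 and 7.76 at 4 dpi. It fell by 1.53 (SE 0.24, adjusted p = 0.00328, limma). Its called length was 4.24 and 4.42 kb at 2 dpi and 4.03 and 1.80 kb at 4 dpi. The 5′ region of the same gene was not called, with a shift of -0.18 (SE 0.13, adjusted p = 0.362). The region of Pkm, chr9:59560420-59569722, stood at 98.7 and 99.0 at 2 dpi and at 97.0 and 97.3 at 4 dpi, and fell by 0.37 (SE 0.08, adjusted p = 0.0125, limma). Hk2 (0.28, SE 0.11, adjusted p = 0.086) and Aldoa (0.25, SE 0.10, adjusted p = 0.111) had positive shifts that did not pass the test. The median shift of the 10 regions was -0.08, against 0.01 over all regions. Neither call was made when peaks were ranked by maximum signal (-1.29 for Slc2a1, adjusted p = 0.0537, and -0.52 for Pkm, adjusted p = 0.233) or by mean signal per base. Pkm was not called without H3K4me3 4 dpi replicate 1, which left 1 gene called. With the stricter peak limit the intragenic region of Slc2a1 could not be tested, because its 4 dpi peaks were below the median of their lists. With log2 of median-scaled signal Gapdh was called too and was lower at 4 dpi (-0.34, adjusted p = 0.0287), against -0.09 by rank (adjusted p = 0.582).

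In H3K18la, 0 of the 6 testable genes were called with limma, in 8 regions, against 0.118% of all 9325 regions. At an unadjusted p under 0.05 there was 1 of the 8, Hk2, against 14.8% of all regions. Hif1a and Eno1 could not be tested because none of their regions was called in all 4 libraries. The Hk2 region at the 5′ edge, chr6:82748768-82752115, stood at 19.3 and 6.23 at 2 dpi and at 77.6 and 48.5 at 4 dpi, a shift of 1.56 (SE 0.45, adjusted p = 0.16). The Ldha region upstream of the edge stood at 26.99 and 50.4 at 2 dpi and at 6.88 and 10.97 at 4 dpi, a shift of -1.05 (SE 0.49, adjusted p = 0.34). Neither set of libraries overlapped between the days, yet with this spread the shifts did not pass the test. Gapdh shifted by 1.49 (SE 0.72, adjusted p = 0.355) with overlapping days, and by 0.07 without H3K18la 2 dpi replicate 2, in which its region stood at 0.23. The intragenic region of Slc2a1 stood at 93.9 and 96.3 at 2 dpi and at 97.0 and 92.2 at 4 dpi, a shift of -0.01 (SE 0.17). The median shift of the 8 regions was -0.03, against 0.00 over all regions.

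In H3K27ac, 0 of the 8 genes were called with limma, in 12 regions, against 0.185% of all 13494 regions. At an unadjusted p under 0.05 there were 5 of the 12, against 14% of all regions. The day is partly mixed with the library set here, because 1 of the 2 libraries at 4 dpi was the broad library. All 5 regions were lower at 4 dpi, and they belonged to Slc2a1, Aldoa, Pkm and, with neighbouring regions, Eno1. Eno1 had the smallest p of these. Its region at the 5′ edge, chr4:150319691-150325333, stood at 87.5 and 84.8 at 2 dpi and at 53.9 and 51.7 at 4 dpi, a shift of -1.02 (SE 0.27, adjusted p = 0.126). The days were far apart, but the shift missed the threshold. Without H3K27ac 2 dpi replicate 1, the Hk2 region 5.41 to 13.9 kb from the edge was called, with a shift of 2.11. In that region the left-out library stood at 58.0 and the other 2 dpi library at 3.15, while the 4 dpi libraries stood at 69.1 and 55.5. The median shift of the 12 regions was -0.34, against -0.07 over all regions.

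**Figure D3:**
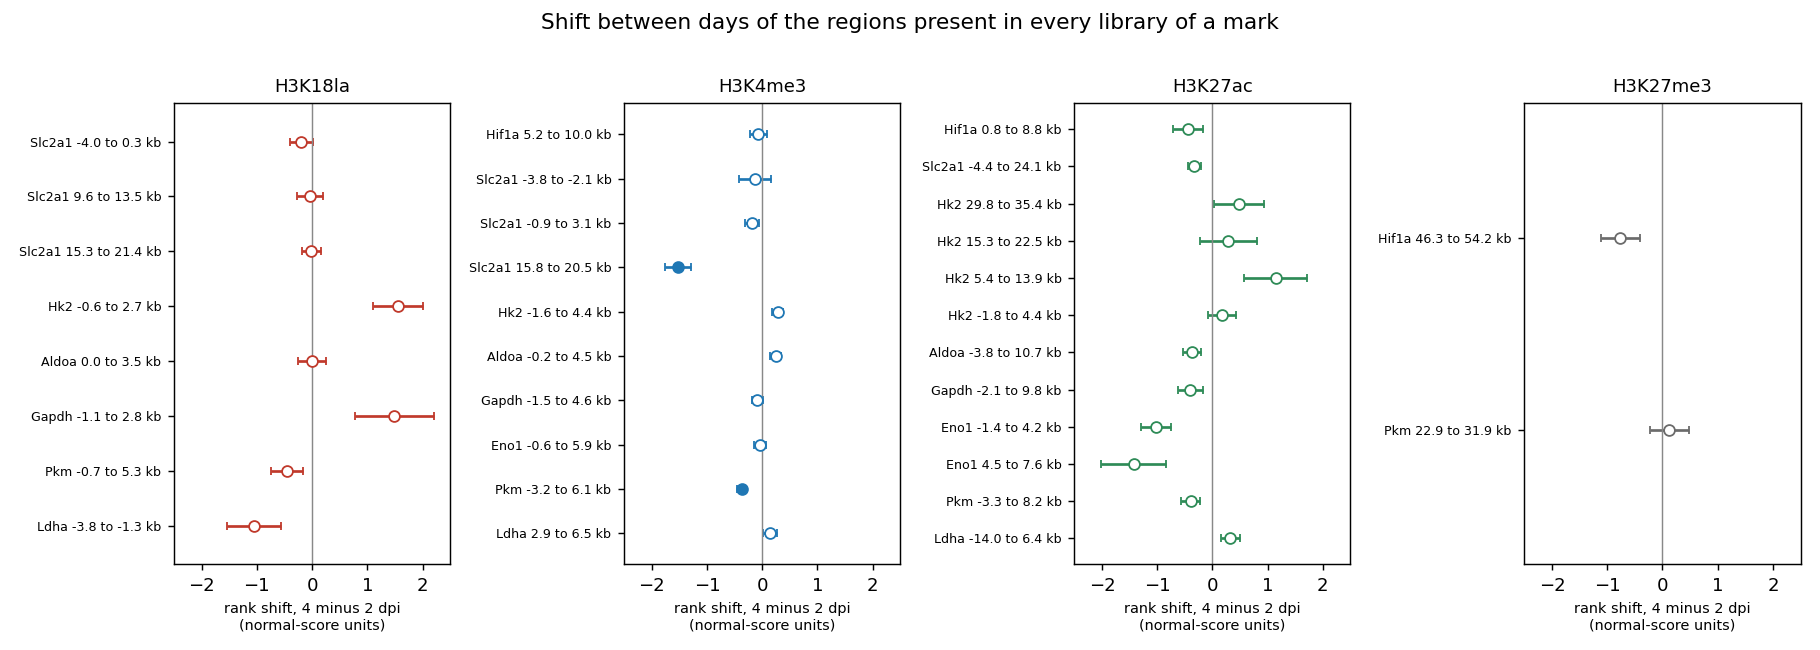
Shift in rank from 2 to 4 dpi (x axis, normal-score units, bars are SE from limma) of each region of the 8 genes that was called in all 4 libraries of an hPTM (y axis, with distances from the 5′ edge in kb). Filled points have an adjusted p under 0.05 and open points do not. The 2 filled points are the H3K4me3 regions of Slc2a1 (-1.53) and Pkm (-0.37).

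Whether a shift differed between hPTMs was tested by the interaction of hPTM and day, an analysis added after the results were seen. Against H3K4me3, 0 of the 4254 regions shared by both hPTMs were called with limma (0%), with 449 at an unadjusted p under 0.05. Against H3K27ac, 0 of 6305 were called (0%), with 552 at an unadjusted p under 0.05. The intragenic region of Slc2a1 shifted by 0.97 more in H3K18la than in H3K4me3 (SE 0.37, adjusted p = 0.406), and Hk2 by 1.19 more (SE 0.38, adjusted p = 0.348). These were the 2 of 7 regions of the 8 genes with an unadjusted p under 0.05 in that comparison, against 10.6% of all regions. The fall of the H3K4me3 rank inside Slc2a1 was therefore not shown to differ from its H3K18la shift.

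The comparison between hPTMs asked at which genes H3K18la ranked differently from the other active hPTMs in macrophages of the same days, with the day as a covariate. Against H3K4me3, H3K18la ranked lower at the start regions of Hk2, Aldoa, Gapdh, Eno1 and Pkm and higher at the intragenic region of Slc2a1. All 6 testable genes were called, against 74.8% of all 4254 regions, 34.6% higher and 40.2% lower, so that a call in itself was common. Gapdh differed most. Its region stood at 34.6, 0.18, 26.9 and 55.9 in the H3K18la libraries (2 dpi replicates 1 and 2, then 4 dpi replicates 1 and 2) and at 92.1, 94.3, 93.5 and 90.5 in those of H3K4me3, a difference of -2.40 (SE 0.49, adjusted p = 0.0013, limma). The differences were -1.76 for Eno1 (SE 0.29, adjusted p = 0.000316), -1.52 for Hk2 (SE 0.26, adjusted p = 0.00042), -0.93 for Pkm (SE 0.20, adjusted p = 0.00165) and -0.56 for Aldoa (SE 0.14, adjusted p = 0.00515). Without H3K18la 2 dpi replicate 2, Gapdh and Eno1 were close, at -1.62 and -1.58.

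At the intragenic region of Slc2a1 the 2 hPTMs stood the other way. It was at 89.6, 93.7, 94.7 and 87.3 in the H3K18la libraries and at 51.4, 49.4, 27.5 and 8.97 in the H3K4me3 libraries, with no overlap. H3K18la ranked higher by 1.87 (SE 0.23, adjusted p = 4.56e-05, limma), and by 1.51 to 2.04 when any 1 library was left out. The 5′ region of Slc2a1 was not called with all libraries in the fit (0.08, SE 0.12, adjusted p = 0.544). That region joined 2 sites because 1 H3K18la peak of 2 dpi replicate 1 bridged them. Without that library the sites were tested apart: upstream, from -4.03 to -2.10 kb, H3K18la ranked higher by 1.09 (SE 0.22, adjusted p = 0.00178), and at the 5′ edge, from -0.95 to 3.07 kb, it ranked lower, with a difference of -0.98 (SE 0.20, adjusted p = 0.00207). Ldha had no region called in all 8 libraries. Without H3K18la 4 dpi replicate 1, its H3K4me3 site could be tested, and H3K18la ranked lower there, with a difference of -1.60 (SE 0.29, adjusted p = 0.001). Its upstream site, testable without H3K4me3 2 dpi replicate 1, gave 0.53 (SE 0.43, adjusted p = 0.3). The median over the 7 regions of the 8 genes was -0.93, against -0.10 over all regions.

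Against H3K27ac, 5 of the 7 testable genes were called, all with a lower rank in H3K18la, against 42.7% of all 6305 regions called and 20.8% called lower. Gapdh had the lowest value with all libraries in the fit (-1.50, SE 0.48, adjusted p = 0.0223), followed by Hk2 (-1.04, SE 0.31, adjusted p = 0.0151), Eno1 (-0.92, SE 0.30, adjusted p = 0.0228), Aldoa (-0.67, SE 0.16, adjusted p = 0.00443) and Pkm (-0.65, SE 0.20, adjusted p = 0.0209). The whole Slc2a1 stretch from -4.40 to 24.1 kb, merged into 1 region, was not called (0.05, SE 0.10, adjusted p = 0.721), at 96.5, 97.8, 97.5 and 95.2 in H3K18la and 98.0, 97.4, 95.2 and 94.4 in H3K27ac. Ldha was not called either (-0.23, SE 0.14, adjusted p = 0.194), in a region that the broad library widened to -14.0 to 6.44 kb. It also widened the regions of Gapdh (-2.09 to 9.85 kb) and Aldoa (-3.77 to 10.7 kb), so their values are not those of the starts alone. Without the broad library the difference was -1.76 for Gapdh, over -1.58 to 3.97 kb. For Aldoa it was -0.50, over -3.73 to 4.92 kb. The value of Gapdh rested on H3K18la 2 dpi replicate 2: without that library it was -0.74 (SE 0.24, adjusted p = 0.032), and Hif1a, then testable, had -1.10 (SE 0.36, adjusted p = 0.0301). The Slc2a1 stretch was called, with a higher rank in H3K18la, by mean signal per called base (1.04) and by log2 of median-scaled signal (0.50). The count of genes depended on single libraries. It was 1 gene without H3K27ac 2 dpi replicate 1, 2 without H3K18la 4 dpi replicate 1 and 3 without the broad H3K27ac library, 4 dpi replicate 1. The median over the 7 regions was -0.67, against 0.03 over all regions.

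**Figure D4:**
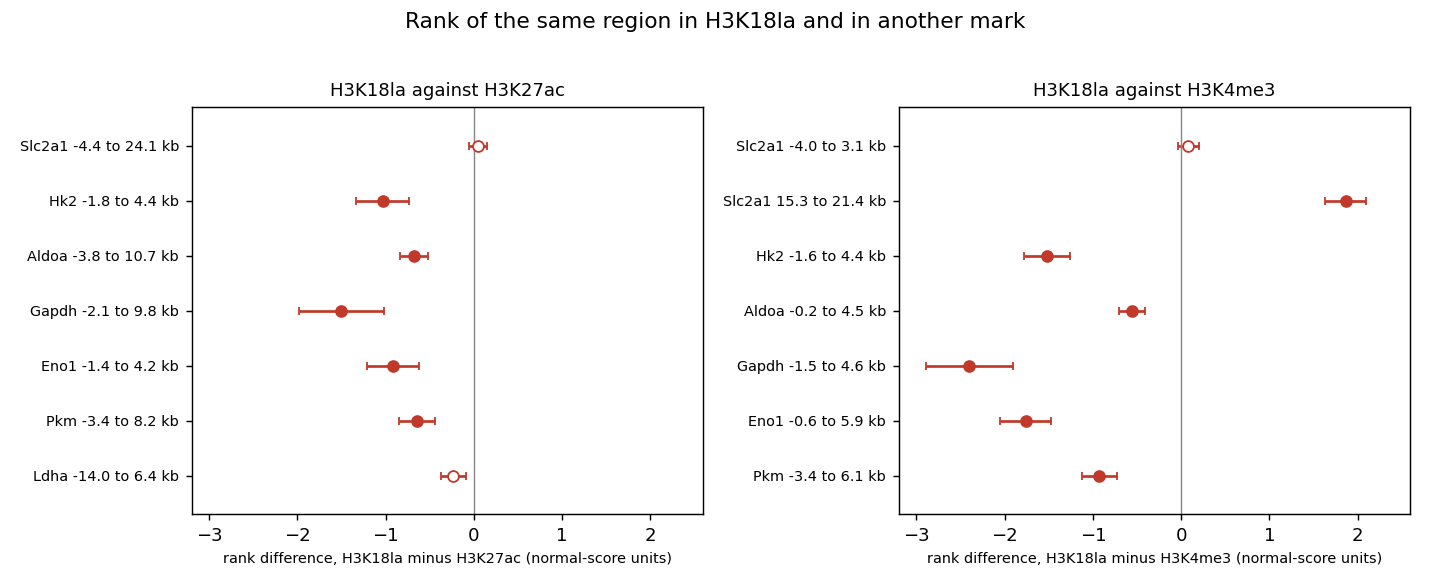
Difference in rank between H3K18la and H3K27ac (left) or H3K4me3 (right) for each region of the 8 genes called in all 8 libraries of both hPTMs (x axis in normal-score units, bars are SE from limma, filled points have an adjusted p under 0.05). With all libraries in the fit, Gapdh has the lowest value in both panels (-1.50 and -2.40). The intragenic region of Slc2a1 is the only filled point above 0 (1.87).

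H3K27me3, the Polycomb mark, was present only at the 3′ ends of Hif1a and Pkm. At Hif1a its peaks lay 46.3 to 54.2 kb from the 5′ edge, at or beyond the 3′ edge of a body of 46.2 kb, with percentiles of 48.2 and 70.3 at 2 dpi and 57.5 in 4 dpi replicate 1. At Pkm they lay 22.9 to 31.9 kb from the 5′ edge of a body of 23.1 kb, with percentiles of 53.8 and 30.6 at 2 dpi and 25.4 and 63.5 at 4 dpi. In GRCm38 the gene Gramd2 lies next to the 3′ end of Pkm and Gm49321 overlaps the 3′ end of Hif1a, so these peaks cannot be given to the members. With the gene bodies alone, with no flank, 0 of the 8 genes had H3K27me3 in all 4 libraries, and without H3K27me3 4 dpi replicate 2 there were 2 with the flank. Over time 0 of the 2 testable genes were called with limma, against 0.945% of all 7515 regions, and 0 had an unadjusted p under 0.05, against 15.3%. The region of Hif1a was testable because it ran past the window, where 4 dpi replicate 2 had a peak too. The shifts were -0.76 for Hif1a (SE 0.35, adjusted p = 0.343) and 0.13 for Pkm (SE 0.35, adjusted p = 0.89). At the starts of the 8 genes, where H3K4me3 lay, no H3K27me3 was called in any library.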

How the data were processed

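The submitters' processing notes list Trim Galore 0.6.6 for trimming, Bowtie2 2.4.4 for alignment, and SAMtools 1.13 with bedtools 2.30. The authors called peaks library by library with SEACR 1.3 (stringent, 0.01). The deposited signal columns hold the total and the maximum fragment coverage of each peak, as whole numbers that the authors did not normalise. Read depth is not in the lists, so depth is unknown and the values carry no counting intervals. The labels name GRCm39 and the study's methods mm10, and each list held 6 to 27 peaks that end beyond the GRCm38 chromosome ends, so GRCm39 was used. Only GRCm38 annotation was at hand and no coordinates were converted, so marker genes, other pathway genes and genes with a pattern like Ldha, which the design had planned, were not analysed here. GRCm38 served for promoter sequences, strand, neighbours and the distance of gene starts.

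All 8 genes were named. Peaks on 21 chromosomes were ranked by total signal within each library, peaks overlapping by 1 bp were merged, and regions called in every library of a comparison were tested on normal scores with limma 3.58.1 (trend, robust) in R 4.3.3, with Benjamini-Hochberg adjustment. Python 3.11.15 and pandas 2.3.3 were used otherwise. The test was checked on simulated data, in which it found fewer of the planted shifts over time in H3K18la and H3K27ac than in H3K4me3 and H3K27me3. Alternatives were the maximum signal, the mean signal per called base, log2 of median-scaled signal, only peaks above the median of their list (the stricter limit), lists of equal length, no flank, a larger overlap, a replicate block and each library left out. The members and lists were chosen with earlier results of these data known. The mice of 2 and 4 dpi differ, so replicate numbers pair no libraries across days. For H3K27me3 at 4 dpi the list names number the replicates the other way round than the labels, which were followed.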

Additional observations from a re-analysis of the deposited data

How the results depend on the processing

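Of 112 counts of genes recomputed under alternatives, 96 stayed within 1.5 times the reported count. Among these were counts of 0 over time in H3K18la, H3K27ac and H3K27me3 that stayed 0. Few of all regions were called there, so these counts had little room to move. In H3K4me3 over time, the 2 genes called became 0 with the maximum signal, 0 with the mean signal per called base, 1 with the stricter limit, under which the Slc2a1 region could not be tested, 3 with log2 of median-scaled signal, which added Gapdh, and 1 to 3 with a library left out. In H3K27ac over time the count of 0 became 0 to 1 with a library left out. H3K18la against H3K27ac gave 2 genes with the stricter limit and 1 to 5 with a library left out, against 5. H3K18la against H3K4me3 gave 2 genes with the stricter limit, against 6. Genes with H3K18la in all 4 libraries were 3 instead of 7 with the stricter limit. Genes with H3K27me3 in all 4 were 0 without the flank, 0 with the stricter limit, 0 with the greater part of the peak required inside the window and 1 to 2 with a library left out. The difference at the 5′ region of Slc2a1 (H3K18la against H3K4me3, 0.08) ranged from -0.98 to 0.18 with a library left out, and was -0.98 without H3K18la 2 dpi replicate 1, because the region then split. The cause of the other changes was not tested. With 1 library left out, a lone library of a group is assumed to vary like the others.

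The numbers of regions called over all genes moved more. Over time H3K18la gave 11 regions, but 0 with the maximum signal, 0 with the mean signal, 113 with log2 of median-scaled signal, 4 with the stricter limit, 20 with lists of equal length and 0 to 367 with a library left out. H3K4me3 gave 2108, but 363, 5 and 995 with the maximum signal, the mean signal and the stricter limit, and 705 to 2776 with a library left out. H3K27ac gave 25, but 0, 0, 68 and 43 with the maximum, the mean, log2 and the stricter limit, and 59 to 284 with a library left out. H3K27me3 gave 71, but 4, 0 and 2 with the maximum, the mean and the stricter limit, and 2 to 487 with a library left out. H3K18la against H3K27ac gave 2690, but 1277 with the mean signal and 1182 with the stricter limit, and H3K18la against H3K4me3 gave 3181, but 979 with the stricter limit.

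In the fits over time, the replicate block took the replicate number as a block, although it pairs no libraries across days. Deviations of same-numbered libraries correlated at -0.06 in H3K18la, -0.00 in H3K4me3, 0.09 in H3K27ac and -0.05 in H3K27me3. With this block 1 gene was called in H3K27ac over time, Eno1, with a shift of -1.02. Regions called over time became 218 for H3K18la, 581 for H3K27ac and 208 for H3K27me3. Between hPTMs the block was the day with the replicate number. The study states that its hPTMs were profiled in the same samples, but the labels do not say which libraries share cells. The block changed no other count of genes, over time or between hPTMs.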
